A study of Mus musculus with 12 samples.

Results

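The young L1MdA, L1MdTf and L1MdGf elements are the most recently spread LINE-1 (L1) retrotransposons of the mouse genome, and their DNA methylation was followed through 6 groups of cells. Members were the repeats of class LINE/L1 whose name begins with L1MdA, L1MdT or L1MdG and that had a methylation level in all 12 libraries. The rule used names and presence only, and no level. It gave 7438 elements of 11676 with these names in at least 1 library, while the other 4238 were missing from 1 or more libraries. They stood among 34707 repeats and 133311 features of every class with a level in all 12 libraries. L1MdA supplied 5659 elements in 7 subfamilies (I to VII), L1MdTf 990 in 3 (I to III) and L1MdGf 789 in 2 (I and II).

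The assay was RRBS, reduced representation bisulfite sequencing, in which an MspI digest enriches CpG-rich DNA and bisulfite leaves only methylated cytosines read as C. There were 2 libraries in each group, all of strain C57BL6. Female embryonic stem cells (ESCs), derived according to the study from fertilised Actin-GFP embryos, were set beside parthenogenetic stem cells (pESCs) from oocytes activated with strontium, which carry no paternal genome. Primordial germ cells (PGCs) were, per the study, those of female embryos, taken at day 9.5 (E9.5) or day 12.5 (E12.5) of embryonic development. They were sorted by CD61 and SSEA1 or with SSEA1 beads, and how many embryos were pooled is not given. PGC-like cells (PGCLCs) were induced from ESCs (ESC-PGCLCs) and from pESCs (pESC-PGCLCs). The stem cells spent 2 days in KSR, bFGF and Activin A and 4 days in BMP4, SCF, EGF and LIF, and cells positive for CD61 and SSEA1 were sorted. Both stem cell types were maintained, per the study, on feeder cells in serum with LIF and moved to the inhibitor medium t2iL before induction. The medium of the sequenced stem cells and the number of lines behind the 2 libraries are not given, and nothing states that the libraries of a group came from separate cultures or embryos, so p-values measure the spread between these libraries, which may be technical.

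L1 elements copy themselves through an RNA intermediate. A full-length copy carries at its 5′ end an internal promoter built of repeated units, the monomers, whose type separates the A, Tf and Gf families, followed by the reading frames ORF1 and ORF2 and a 3′ end. Many copies are cut short at the 5′ end and lack this promoter. CpG methylation of the promoter is a known restraint on L1 transcription, and the L1 subfamilies still able to move are held among these families. Germ cell precursors lose much of their genomic methylation as they reach the gonad, which makes these elements a standard place to follow that loss.

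Each value belongs to a subfamily name and a range of bases in that subfamily's consensus sequence, for example L1MdTf_I:16-6653. Copies that share a name and range share 1 value, and no genome position is given, so a value cannot be traced to a locus or a neighbouring gene. The start of the range ran from consensus base 1 to 6485 and the span from 24 to 6660 bases, with a median of 1506. Of the 7438 elements, 3727 start at base 1 to 1000 and are called 5′ elements here, 522 start after base 1000 and up to 5000, and 3189 start past base 5000 and are called 3′ elements. The level is the percent of CG calls that were methylated, and differences are in percentage points. Read depth is unknown, so no counting interval can be given.

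Features with a level numbered 144375 to 166476 per library, and 2 to 15 members were listed at exactly 0 and 0 to 21 at exactly 100 in any library. The parthenogenetic label was checked at promoters methylated on the maternal copy. Snrpn was at 34.5% and 44.8% in the ESC libraries and at 82.8% and 83.2% in the pESC libraries, and Mest, Peg10, Sgce and Plagl1 were likewise higher in both pESC libraries than in both ESC libraries. No such check was made for the other groups, which rest on their labels. The 2 ESC libraries stood apart from each other. Over all members ESC replicate 1 was at 57.1% and replicate 2 at 49.4%, a gap of 7.70 points, against 2.04 points in pESCs and 0.118 to 0.626 points in the PGC and PGCLC groups. Stem cell levels are given by library where they carry a comparison, and other stem cell values are group means over these libraries.

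Young L1 elements were most methylated in E9.5 PGCs. Their mean level was 67.5% ± 0.0833 (SD, n = 2) in E9.5 PGCs, 58.0% ± 0.0906 in ESC-PGCLCs, 54.9% ± 0.443 in pESC-PGCLCs, 53.3% ± 5.45 in ESCs, 52.9% ± 1.44 in pESCs and 49.9% ± 0.311 in E12.5 PGCs (SD, n = 2 each). The E9.5 PGC, ESC-PGCLC and pESC-PGCLC libraries did not overlap one another. The ESC libraries spanned those of pESC-PGCLCs, pESCs and E12.5 PGCs, so ESCs did not differ from these groups beyond their own spread. The pESC libraries, at 53.9% and 51.8%, lay under both pESC-PGCLC libraries (55.2% and 54.6%) and above both E12.5 PGC libraries (49.7% and 50.1%).

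The 5′ elements carried most of the differences between subfamilies. In E9.5 PGCs the 5′ elements of the 12 subfamilies lay between 72.7% (L1MdA_VI) and 83.4% (L1MdA_I and L1MdGf_I). In the stem cells the range was far wider. L1MdA_I stood at 76.0% and 67.8% in the ESC libraries and at 72.6% and 70.1% in the pESC libraries. L1MdTf_I stood at 29.9% and 22.8% in ESCs and at 25.2% and 25.1% in pESCs, and L1MdTf_II at 32.8% and 25.3% in ESCs and at 28.5% and 27.7% in pESCs. All 4 stem cell libraries of L1MdTf_I and L1MdTf_II lay under every stem cell library of the other 10 subfamilies, the lowest of which was L1MdGf_I in ESC replicate 2 at 42.7%. The third Tf subfamily, L1MdTf_III, was at 63.4% and 45.1% in ESCs and at 58.5% and 48.8% in pESCs.

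**Figure D1:**
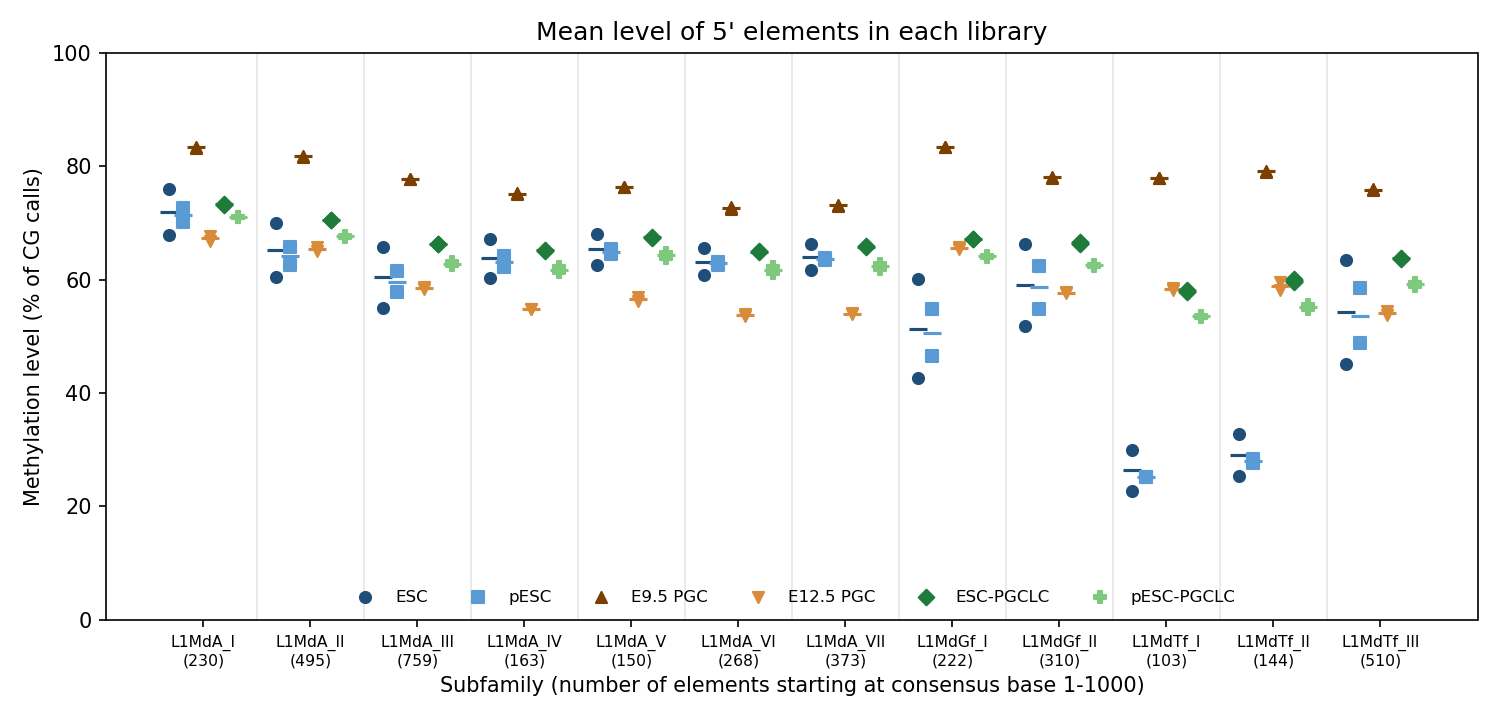
Mean methylation level (percent of CG calls) of the 5′ elements of each of the 12 subfamilies in each of the 12 libraries. Each symbol is 1 library, the short line is the group mean, and the number of elements stands under each name. L1MdTf_I and L1MdTf_II lie at 22.8% to 32.8% in the stem cell libraries and at 78.0% to 79.2% in E9.5 PGCs, while L1MdA_I lies at 67.8% to 76.0% and 83.4%.

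L1MdTf_I and L1MdTf_II were described as 1 set of 247 5′ elements, chosen after these levels were seen. ESC replicates 1 and 2 gave 31.6% and 24.3%, and the pESC replicates gave 27.1% and 26.6%. The E9.5 PGC libraries gave 78.7% and 78.6%, and the E12.5 PGC libraries gave 58.2% and 59.2%. The ESC-PGCLC libraries gave 59.0% and 59.1%, and the pESC-PGCLC libraries gave 54.3% and 54.6%. The nearest PGCLC library was thus 27.4 points above the nearest ESC library and 27.2 points above the nearest pESC library. E12.5 PGCs and ESC-PGCLCs overlapped, while both pESC-PGCLC libraries lay at least 3.60 points under both E12.5 PGC libraries.

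The low stem cell level of the set came from a large share of its elements, not from all of them. In ESCs 129 of the 247 elements had a group mean under 20% and 190 were under 40%, while 30 were above 60%. The counts in pESCs were 131, 192 and 28. The median element was at 18.7% in ESCs, with a 10th percentile of 8.19% and a 90th of 64.0%. In E9.5 PGCs 237 elements were above 60% and 3 were under 40%, and the 10th to 90th percentile ran from 70.8% to 86.2%. L1MdA_I spread less in the stem cells, from 57.2% to 81.6% in ESCs, where 203 of its 230 5′ elements were above 60% and 7 were under 40%. L1MdGf_I stood between these, with 17 of 222 5′ elements under 20%, 71 under 40% and 98 above 60% in ESCs.

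**Figure D2:**
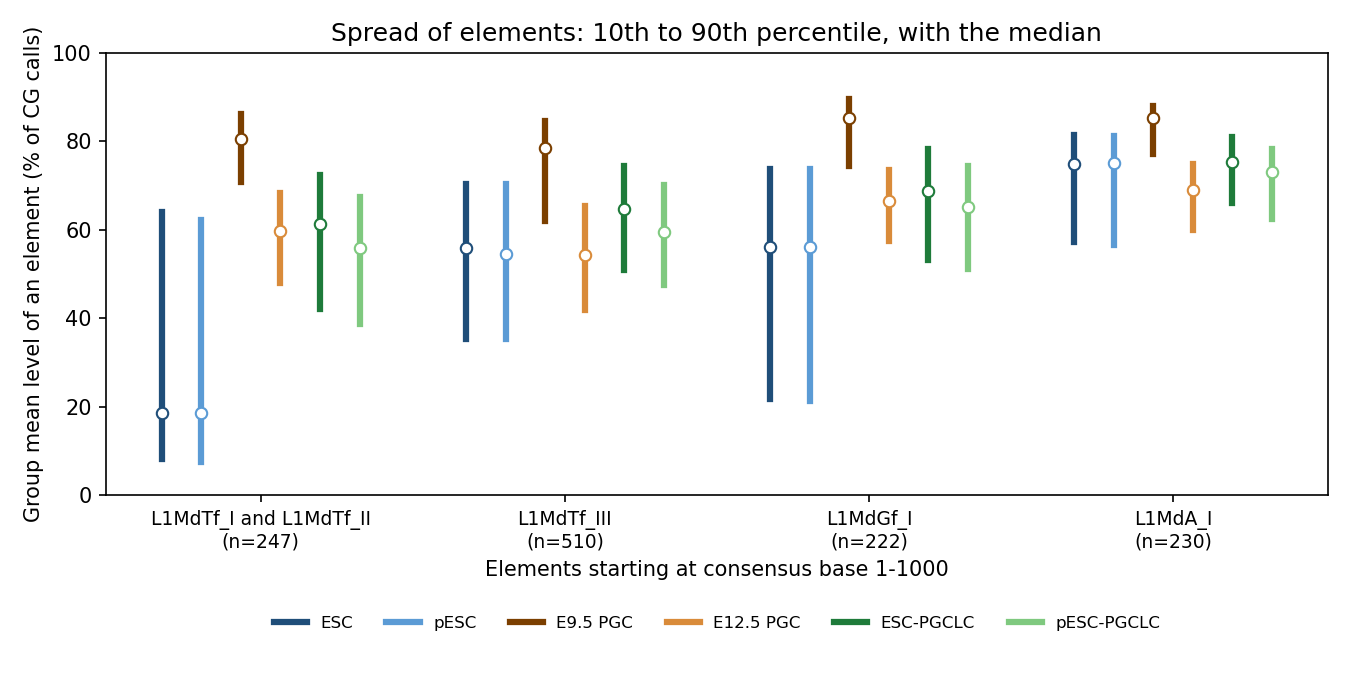
Spread of element levels (group mean of each 5′ element, percent of CG calls) in 4 sets, by group. Bars run from the 10th to the 90th percentile of elements and circles mark the median. For L1MdTf_I and L1MdTf_II the ESC bar runs from 8.19% to 64.0% and the E9.5 PGC bar from 70.8% to 86.2%.

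Which of these elements were low was shared between ESCs and pESCs and bore little relation to their order in E9.5 PGCs. Across the 247 elements, which are not independent replicates and whose values come from the same libraries, Spearman's rho was 0.967 between ESC and pESC means, 0.0245 between ESCs and E9.5 PGCs and 0.132 between ESCs and E12.5 PGCs. It was 0.326 between ESCs and ESC-PGCLCs and 0.349 between pESCs and pESC-PGCLCs, against 0.519 between ESC-PGCLCs and E9.5 PGCs. In L1MdA_I the rho between ESCs and ESC-PGCLCs was 0.732, and between ESCs and E9.5 PGCs 0.367. These values are given as descriptions.

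Elements that lack the 5′ end showed little of this. The 3′ elements of L1MdTf_I and L1MdTf_II, 46 in number, were at 59.2% and 47.2% in the ESC libraries and at 54.5% and 50.9% in the pESC libraries, 65.6% and 63.5% in the E9.5 PGC libraries and 54.5% and 55.4% in the ESC-PGCLC libraries. Their ESC and ESC-PGCLC libraries overlapped. Over the families, the 3′ elements lay close together in every group, at 47.1%, 48.5% and 50.3% for L1MdA, L1MdTf and L1MdGf in ESCs, 56.7%, 58.0% and 59.96% in E9.5 PGCs and 40.7%, 42.4% and 42.7% in E12.5 PGCs (group means).

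Position in the consensus separated the elements in every group, but by different amounts. Over all members, the 5′ elements were 20.8 points above the 3′ elements in E9.5 PGCs, 17.8 points in E12.5 PGCs, 17.0 points in ESC-PGCLCs and 16.1 points in pESC-PGCLCs. In the stem cells this step was smaller and varied between libraries, at 14.5 and 8.86 points in the ESC libraries and at 13.2 and 9.15 points in the pESC libraries. In L1MdTf the direction itself differed between the ESC libraries, with 5′ elements at 53.1% and 3′ elements at 51.6% in replicate 1 and at 38.3% and 45.3% in replicate 2. Elements starting between these limits lay near the 3′ elements in each group, at 48.2% in ESCs and 58.1% in E9.5 PGCs over the 522.

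**Figure D3:**
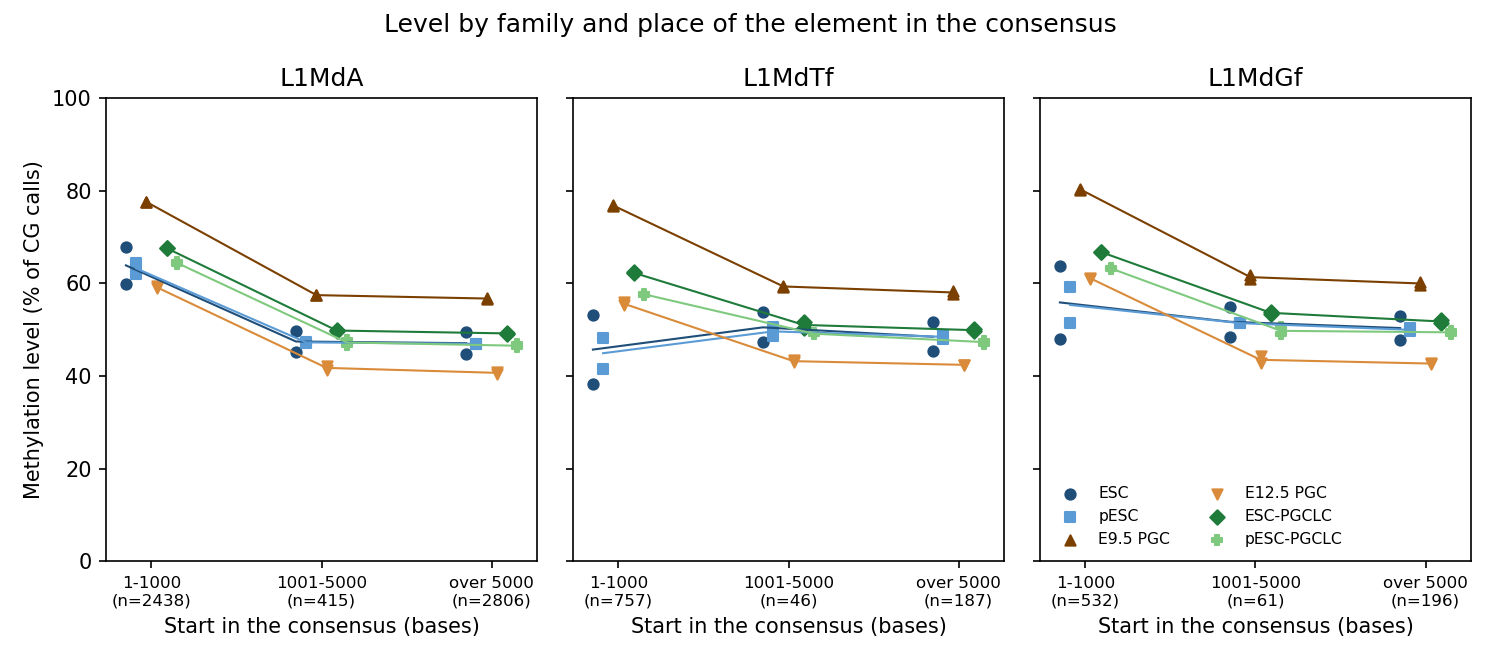
Mean methylation level (percent of CG calls) by family and by the start of the element in the consensus, with 1 symbol per library and lines through the group means. In L1MdA every group is higher at the 5′ end, while L1MdTf in ESCs is at 53.1% and 38.3% at the 5′ end and at 51.6% and 45.3% at the 3′ end.

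Within the first 500 consensus bases, where 5′ elements differ in how much of the consensus 5′ end they hold, the families ran in opposite directions in the stem cells. The 100-base bins were chosen after the coarser ones were seen. L1MdTf elements starting at base 1 to 100 (181 elements) were at 43.3% and 29.5% in the ESC libraries, and those starting at 401 to 500 (44 elements) were at 66.3% and 55.8%. L1MdGf went from 51.1% and 34.0% (100 elements) to 67.2% and 56.6% (64 elements) over the same bins. L1MdA went the other way, from 74.2% and 66.8% (297 elements) to 67.3% and 59.5% (715 elements). The pESC libraries had the same directions, with L1MdTf from 38.1% and 32.6% to 59.8% and 58.4% and L1MdA from 71.4% and 69.1% to 63.6% and 61.6%. The L1MdTf bins also differed in makeup. L1MdTf_I and L1MdTf_II gave 94 of the 181 elements in the first bin and 10 of the 44 in the last. L1MdTf_III alone went from 62.5% and 40.1% to 66.0% and 55.6% in the ESC libraries. The family values therefore do not separate position from makeup.

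The PGC groups had the highest levels at the very start of the consensus in all 3 families. In E9.5 PGCs group means went from 78.8% to 74.0% in L1MdTf, from 82.6% to 76.3% in L1MdGf and from 82.1% to 76.3% in L1MdA between these bins, and in E12.5 PGCs from 58.8% to 54.0%, from 65.6% to 56.3% and from 66.8% to 56.8%. Within subfamilies this did not always hold. In E9.5 PGCs L1MdGf_I was at 83.4% for starts at 1 to 100 and at 85.1% for starts at 201 to 300. The PGCLC groups were flatter in L1MdTf and L1MdGf, with L1MdTf at 61.8% and 64.5% in PGCLCs from ESCs and at 56.5% and 59.9% in those from pESCs.

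Within subfamilies the stem cell pattern along the 5′ end was uneven. In L1MdTf_I and L1MdTf_II the 94 elements starting at base 1 to 100 were at 25.4% and 19.7% in the ESC libraries and the 36 starting at 301 to 400 at 51.3% and 38.9%. The 10 that start at 401 to 500 were at 67.1% and 56.4%, in a bin too thin to carry the trend, which was present without it. In L1MdGf_I the ESC libraries went from 45.6% and 28.2% (63 elements) to 69.7% and 53.0% (48 elements starting at 301 to 400). In L1MdTf_III they went from 62.5% and 40.1% (87 elements) to 66.0% and 50.2% (117 elements), so that ESC replicate 2 carried most of that difference. Spearman's rho between start and ESC level over starts up to base 500 was 0.396 in L1MdTf_II, 0.490 in L1MdGf_I, 0.253 in L1MdTf_III and -0.474 in L1MdA_I, and in E9.5 PGCs it was -0.000671, 0.0915, -0.114 and -0.0289. In ESCs it was weaker in L1MdTf_I (0.202) and L1MdGf_II (0.113). In the other L1MdA subfamilies it was -0.240 (II), -0.0896 (III), -0.0999 (IV), 0.136 (V), 0.00669 (VI) and 0.168 (VII), so the direction of L1MdA as a whole was not that of L1MdA_V to L1MdA_VII. Each is a description across elements of the same libraries.

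**Figure D4:**
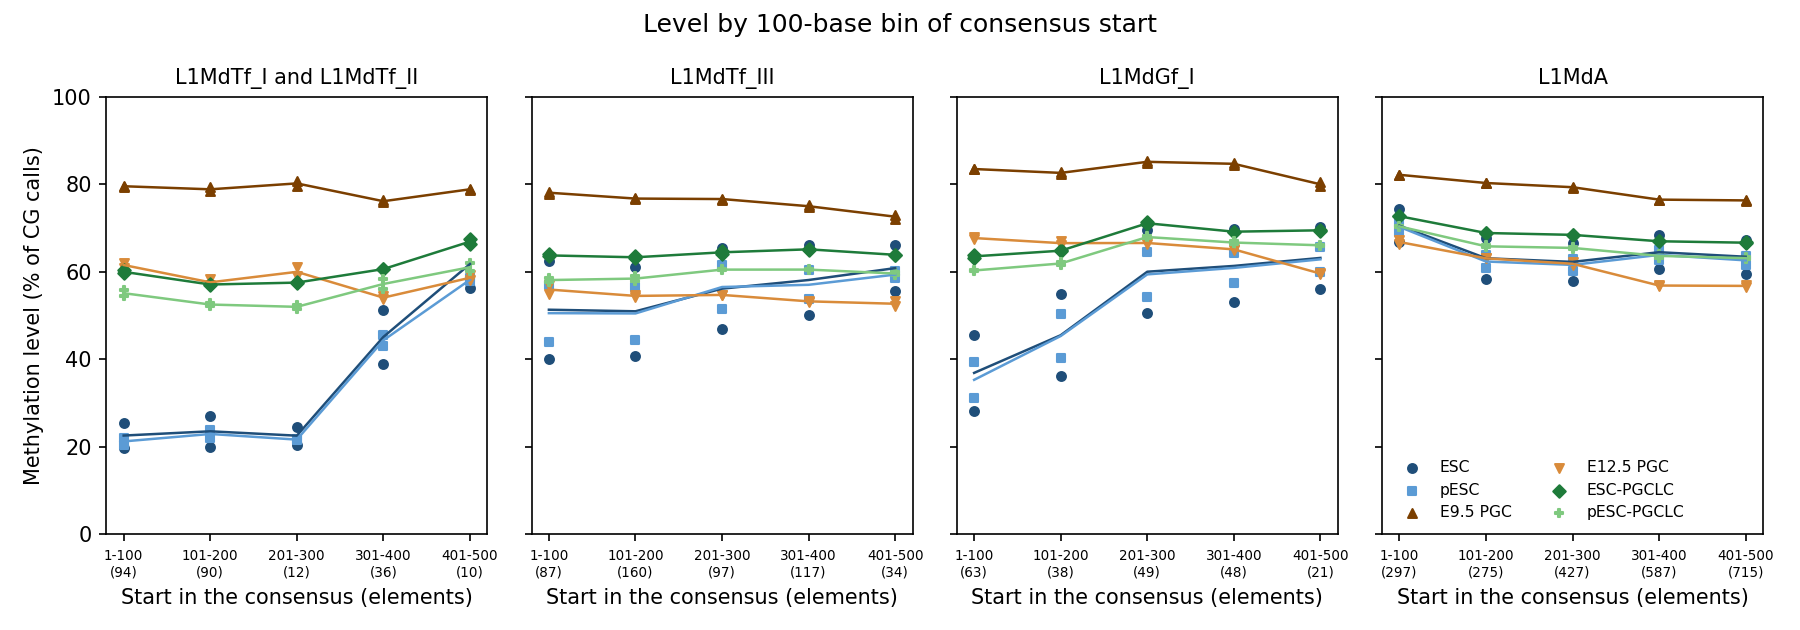
Mean methylation level (percent of CG calls) of elements by the 100-base bin in which they start within the first 500 consensus bases, with 1 symbol per library, lines through the group means and the number of elements under each bin. In ESCs L1MdTf_I and L1MdTf_II are at 25.4% and 19.7% in the lowest bin and 51.3% and 38.9% in the bin 301 to 400, while E9.5 PGCs stay between 75.9% and 80.8% throughout.

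The 1390 nearly complete elements, which start at base 1 to 1000 and end at base 6000 or later, were also averaged by family. The 875 of L1MdA were at 65.9% and 57.9% in ESCs, 62.6% and 60.1% in pESCs, 75.6% and 75.7% in E9.5 PGCs, 57.6% and 58.3% in E12.5 PGCs, 66.1% and 66.2% in PGCLCs from ESCs and 63.1% and 62.8% in those from pESCs. The 306 of L1MdTf were at 52.6% and 39.7% in ESCs, 48.1% and 42.0% in pESCs and 52.3% and 53.3% in E12.5 PGCs, and the 209 of L1MdGf at 64.1% and 49.0%, 59.6% and 52.3%, and 58.7% and 58.9%. The E9.5 PGC libraries were the highest in each family, and the ESC libraries overlapped or spanned those of E12.5 PGCs.

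The single element with the longest span in each family is given next, and these 3 do not stand for the nearly complete elements as a whole. L1MdA_II:1-6660 was at 57.4% and 48.6% in ESCs, 45.2% and 51.1% in pESCs, 80.1% and 79.5% in E9.5 PGCs, 68.3% and 72.2% in E12.5 PGCs, 74.3% and 73.8% in PGCLCs from ESCs and 68.5% and 66.0% in those from pESCs. L1MdTf_I:16-6653 was at 32.8% and 13.1% in ESCs, 23.4% and 17.7% in pESCs, 84.4% and 80.8% in E9.5 PGCs, 63.8% and 61.3% in E12.5 PGCs, 60.4% and 51.6% in PGCLCs from ESCs and 44.2% and 45.2% in those from pESCs. L1MdGf_I:9-6598 was at 62.9% and 45.2% in ESCs, 50.1% and 45.1% in pESCs, 82.4% and 81.9% in E9.5 PGCs, 66.2% and 66.7% in E12.5 PGCs, 67.0% and 65.1% in PGCLCs from ESCs and 63.1% and 63.4% in those from pESCs. In these 3 elements the stem cell libraries were below all 8 PGC and PGCLC libraries, unlike in the family means.

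Whether the absence of a paternal genome alters these elements was asked first in the stem cells. By limma with p-values adjusted by Benjamini-Hochberg over every feature in the test (an element is called, here and below, at an adjusted p under 0.05 with a difference of 10 points or more between group means), none of the 7438 members was called between pESCs and ESCs, as was the case for 0% of all 148012 features. The Mest promoter, at 6.73% and 6.76% in the ESC libraries and 47.6% and 44.7% in the pESC libraries, was not called either. The absence of calls therefore does not show that levels were equal. Of the members, 35 had an unadjusted p under 0.05, and the smallest adjusted p was 0.0995, at L1MdA_V:4798-6563 (14.3% in both ESC libraries and listed at 0 in both pESC libraries). The element with the next smallest p, L1MdTf_III:339-6579, was at 54.8% and 37.5% in ESCs and at 16.7% and 21.7% in pESCs. The median difference over members was -0.34 points, and its sign rested on single libraries, at 2.92 points without ESC replicate 1, -3.57 without ESC replicate 2, -1.02 without pESC replicate 1 and 0.41 without pESC replicate 2. Leaving out pESC replicate 1 gave 18 calls, and leaving out pESC replicate 2 gave 2. The gap between the replicates was itself uneven over the elements. It was 17.4 points in ESCs and 8.32 in pESCs for 5′ elements of L1MdGf_I, 18.3 and 9.73 for those of L1MdTf_III, and 7.09 and 0.0933 for those of L1MdTf_I, against 4.86 and 0.0322 for 3′ elements of all subfamilies.

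Methylation of young L1 elements fell in PGCs between E9.5 and E12.5. Of 7438 members 6713 were called lower at E12.5 (90.3%, against 49.6% of all 137202 features), and 2 were called higher (against 0.035% of all features). The median difference was -17.1 points, against -11.5 over all features and -19.5 over all repeats. Among other repeats the shares called lower were 91.3% of the other L1Md elements, 85.3% of Lx, 85.1% of L1M and 85.0% of IAP elements, which are long terminal repeat retrotransposons known to resist demethylation. The median differences of these lists, in the same order, were -18.0, -20.5, -24.4 and -17.6 points. With each library centred on its own median the members' split was 402 lower and 70 higher, and the median over all features went from -11.5 to 4.48 points.

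E12.5 PGCs kept 73.9% of the E9.5 level over all members. At the 5′ end the share was 80.7% in L1MdA_I, 80.1% in L1MdA_II and 78.8% in L1MdGf_I, and 71.3% to 75.2% in the other 9 subfamilies. The calls were likewise spread over the 5′ elements, from 87.4% of L1MdTf_I to 96.7% of L1MdA_V.

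The largest falls by family were seen at L1MdA_I:17-5674, L1MdTf_III:270-5586 and L1MdGf_II:2329-6585. L1MdA_I:17-5674 was listed at 100% in both E9.5 PGC libraries and was at 25.0% and 29.7% in E12.5 PGCs (adjusted p = 7.47e-05, limma). L1MdTf_III:270-5586 was at 75.6% and 64.8% and then at 17.3% and 22.2% (adjusted p = 0.000134, limma). L1MdGf_II:2329-6585 was at 81.4% and 75.5% and then at 28.9% and 34.6% (adjusted p = 0.000609, limma). The 2 elements called higher at E12.5 are both short 3′ elements. L1MdA_VII:5841-6572 was at 4.26% and 5.56% in E9.5 PGCs, then 25.0% and 26.3% (adjusted p = 0.000203, limma). L1MdA_I:6207-6579 was at 16.7% in 1 E9.5 PGC library and listed at 0 in the other, then 31.2% and 50.0% (adjusted p = 0.0489, limma).

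PGCLCs were next compared with E9.5 PGCs, to ask how near the cells made in culture come to the embryonic ones. In ESC-PGCLCs 2515 members were called lower than in E9.5 PGCs (33.8%, against 29.6% of all features) and 13 higher (against 0.168%), with a median difference of -8.48 points. In pESC-PGCLCs 4336 were called lower (58.3%, against 40.2% of all features) and 8 higher (against 0.127%), with a median of -11.4 points. Centring each library gave 366 lower and 142 higher for ESC-PGCLCs, and 552 lower and 103 higher for pESC-PGCLCs. Without centring, 41.1% of all repeats were called lower in ESC-PGCLCs and 62.6% in pESC-PGCLCs, with medians of -9.59 and -13.2 points. Both comparisons share the E9.5 PGC libraries.

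The shares differed widely by subfamily. Among 5′ elements, 82.5% of L1MdTf_I, 81.3% of L1MdTf_II and 77.0% of L1MdGf_I were called lower in ESC-PGCLCs than in E9.5 PGCs, against 19.3% of L1MdA_VII, 23.5% of L1MdA_VI and 37.8% of L1MdA_I. For pESC-PGCLCs the same subfamilies gave 93.2%, 88.2% and 89.2%, and 56.0%, 59.3% and 138 of 230 elements. Of the 3′ elements 18.9% and 42.2% were called lower.

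L1MdTf_I:117-5586 had the largest fall of its family in both comparisons. It was at 92.9% and 84.7% in E9.5 PGCs, at 15.1% and 5.54% in ESC-PGCLCs (adjusted p = 0.000999, limma) and at 18.8% and 17.4% in pESC-PGCLCs (adjusted p = 0.000752, limma). Its stem cell libraries lay between 7.70% and 10.7%. L1MdA_I:200-5606 was at 98.5% and 97.4% in E9.5 PGCs, at 26.7% and 21.8% in PGCLCs from ESCs and at 25.2% and 28.4% in those from pESCs (adjusted p = 0.000725 and 0.000258, limma), and it was at 29.6% and 23.3% in ESCs. L1MdGf_I:16-4790 was at 82.6% in both E9.5 PGC libraries, at 26.1% and 31.2% in PGCLCs from ESCs and at 26.6% and 27.4% in those from pESCs (adjusted p = 0.000725 and 0.000258, limma), and it was at 17.1% and 11.8% in ESCs. These 3 elements were named for the size of this fall, which fixes their distance from E9.5 PGCs.

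The few elements called higher in PGCLCs than in E9.5 PGCs included L1MdA_I:6207-6579, which had the largest rise of L1MdA in both comparisons (adjusted p = 0.04 from ESCs and 0.0309 from pESCs, limma). It was at 54.7% and 50.0% in pESC-PGCLCs. L1MdGf_II:366-6577 was at 50.3% and 54.0% in E9.5 PGCs and at 68.2% and 70.3% in ESC-PGCLCs (adjusted p = 0.0149, limma). L1MdGf_II:5036-6579 was at 29.3% and 25.7% in E9.5 PGCs and at 45.2% and 36.5% in pESC-PGCLCs (adjusted p = 0.0112, limma). The stem cell libraries of both Gf elements lay above both E9.5 PGC libraries.

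Against E12.5 PGCs most of the called members were higher in PGCLCs. In ESC-PGCLCs 2508 members were called higher (33.7%, against 22.2% of all features) and 91 lower (1.22%, against 0.523%), with a median difference of 8.72 points. In pESC-PGCLCs 626 were called higher (8.42%, against 6.81% of all features) and 111 lower (1.49%, against 0.287%), with a median of 5.74 points. The pESC-PGCLC count is not stable. It was 0 without pESC-PGCLC replicate 1, 13 (3 higher and 10 lower) without replicate 2, 32 (13 higher and 19 lower) without E12.5 PGC replicate 1, 95 without E12.5 PGC replicate 2, 319 without E9.5 PGC replicate 1, 294 without E9.5 PGC replicate 2, 462 and 444 without ESC-PGCLC replicates 1 and 2, and 38 in 1 fit of all 12 libraries. Centring gave 208 higher and 201 lower for ESC-PGCLCs, and 11 higher and 111 lower for pESC-PGCLCs.

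The calls against E12.5 PGCs were uneven over the subfamilies. Of the 5′ elements of L1MdA_IV to L1MdA_VII, 55.8% to 66.2% were called higher in ESC-PGCLCs than in E12.5 PGCs, against 7.77% of L1MdTf_I, 11.1% of L1MdTf_II, 13.5% of L1MdGf_I, 14.3% of L1MdA_I and 17.0% of L1MdA_II. The lower calls ran the other way, with 12 of 103 in L1MdTf_I, 17 of 144 in L1MdTf_II and 17 of 222 in L1MdGf_I, and with 0 in L1MdA_V, L1MdA_VI and L1MdA_VII. The largest rise was L1MdTf_III:270-5586 for L1MdTf, at 17.3% and 22.2% in E12.5 PGCs, 69.8% and 69.0% in ESC-PGCLCs (adjusted p = 0.00225, limma) and 71.4% and 72.6% in pESC-PGCLCs (adjusted p = 0.0067, limma). For L1MdA it was L1MdA_III:6320-6579, at 45.2% and 35.5% in E12.5 PGCs and 100% and 94.4% in ESC-PGCLCs (adjusted p = 0.00563, limma). For L1MdGf it was L1MdGf_II:2329-6585, described above. In pESC-PGCLCs the largest rises of L1MdA and L1MdGf were at L1MdA_VI:5862-6576, from 15.8% and 20% to 45.2% and 51.4% (adjusted p = 0.0102, limma), and at L1MdGf_II:380-6579, from 31.8% and 36.4% to 57.8% and 62.7% (adjusted p = 0.0364, limma).

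The 91 members called lower in ESC-PGCLCs than in E12.5 PGCs had little methylation in the stem cells. They averaged 34.4% and 24.1% in the ESC libraries and 29.6% and 27.3% in the pESC libraries, against 61.9% and 54.2%, and 58.7% and 56.6%, for the 2508 called higher. In E9.5 PGCs the 91 were at 76.9% and 77.3%, in E12.5 PGCs at 61.5% and 61.6%, in PGCLCs from ESCs at 39.1% and 39.0% and in those from pESCs at 40.6% and 41.0%. Of the 91, 81 were 5′ elements, against 3727 of all 7438 members. Of the 91, 46 were of L1MdTf_I, L1MdTf_II or L1MdGf_I, while all members held 296 of the 2 Tf subfamilies and 244 of L1MdGf_I. These Tf subfamilies were the lowest in the stem cells, so the low stem cell mean of the 91 is not separate from their makeup. Nor is it separate from how the 91 were chosen, since element levels in ESCs and ESC-PGCLCs were correlated. Spearman's rho over 5′ elements was 0.326 in L1MdTf_I and L1MdTf_II, 0.706 in L1MdGf_I and 0.732 in L1MdA_I. One of the 91 is L1MdGf_I:86-5586, at 79.5% and 78.2% in E12.5 PGCs and 38.3% and 35.1% in ESC-PGCLCs (adjusted p = 0.00119, limma), and at 46.1% and 21.0% in ESCs. The 111 lower in pESC-PGCLCs averaged 29.2% and 26.8% in the pESC libraries, and 107 of them were 5′ elements.

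Induction was then followed from each stem cell to its own PGCLCs, and here the subfamilies parted most. In ESC-PGCLCs 497 of 7438 members were called higher than in ESCs (6.68%, against 13.7% of all 136848 features) and 33 lower (0.444%, against 0.899%), with a median difference of 2.40 points. In pESC-PGCLCs 370 were called higher than in pESCs (4.97%, against 8.91% of all features) and 33 lower (0.444%, against 0.746%), with a median of -0.22 points. Over the members as a whole the share called higher was therefore under that of all features. It was 6.15% and 3.48% in the other L1Md elements, 13.9% and 8.45% in Lx and 3.64% and 1.40% in IAP.

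L1MdTf_I and L1MdTf_II were far above this background at their 5′ end. Both were singled out for their low stem cell levels, which are also the baseline here and leave more room to rise. The rise is therefore not evidence separate from that low level. Of 103 L1MdTf_I 5′ elements 78 were called higher in ESC-PGCLCs and 72 in pESC-PGCLCs, and of 144 L1MdTf_II 5′ elements 93 and 91. Their median differences were 37.1 and 34.0 points from ESCs and 33.3 and 29.8 points from pESCs. L1MdGf_I followed with 51 and 45 of 222 5′ elements (23.0% and 20.3%) and medians of 11.9 and 8.76 points. The 5′ elements of L1MdTf_III gave 8.43% and 4.71%, those of L1MdA_II 8.48% and 6.87%, those of L1MdA_III 8.70% and 5.67%, and those of L1MdA_I 6 and 3 of 230. L1MdA_IV to L1MdA_VII gave between 0.746% and 4.00%. Of the 3189 3′ elements 1.91% and 0.815% were called higher.

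**Figure D5:**
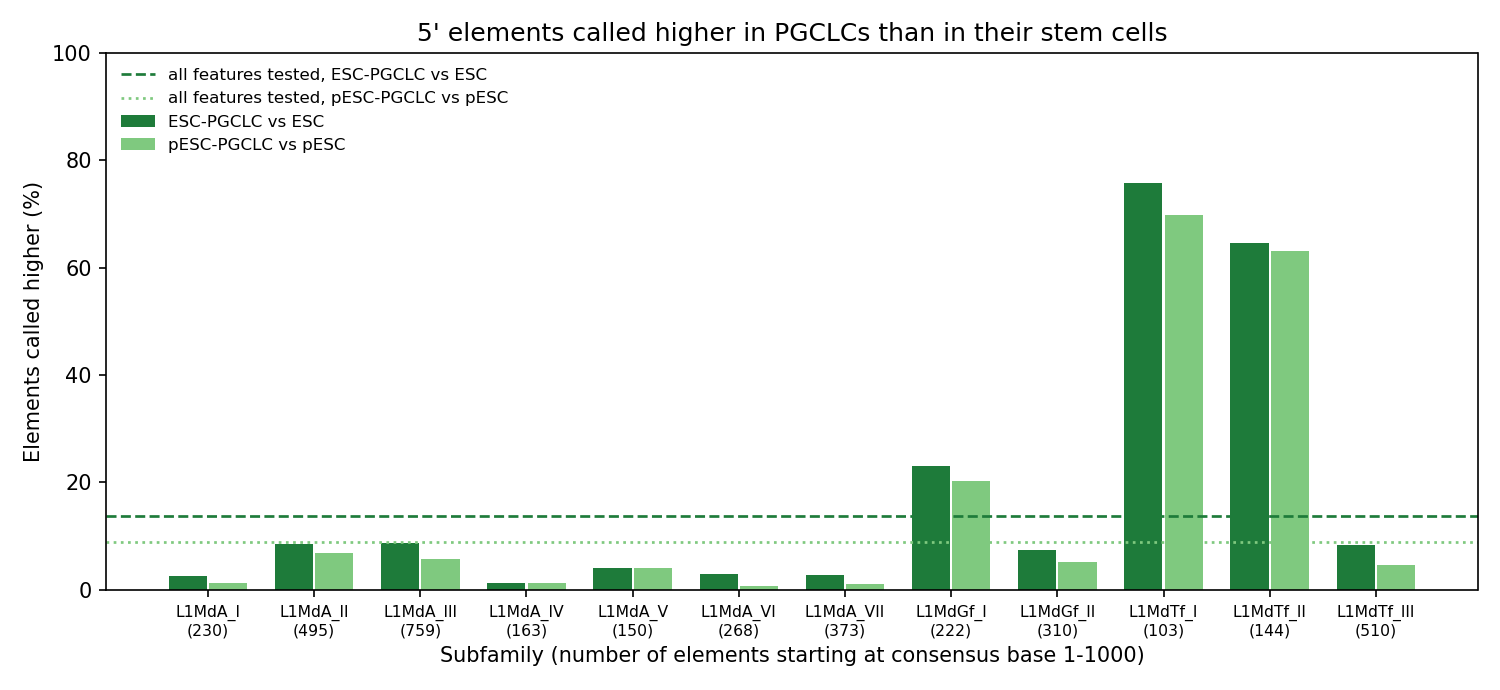
Share of 5′ elements of each subfamily called higher in PGCLCs than in the stem cells they came from (limma, adjusted p under 0.05 and at least 10 points), for both origins, with the number of elements under each name. The lines give the share among all features tested, 13.7% from ESCs and 8.91% from pESCs. The stem cell levels of L1MdTf_I and L1MdTf_II, the lowest of all subfamilies, are the baseline of their shares. L1MdTf_I, L1MdTf_II and L1MdGf_I lie above both lines, at 75.7% and 69.9%, 64.6% and 63.2%, and 23.0% and 20.3%, and the other 9 subfamilies lie below them.

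The counts and medians over all members depended on single libraries. The median from ESCs was 5.48 points without ESC replicate 1 and -0.71 without ESC replicate 2. The median from pESCs was 0.34 points without pESC replicate 1, -0.81 without pESC replicate 2, -0.44 without pESC-PGCLC replicate 1 and 0.22 without pESC-PGCLC replicate 2. Without ESC replicate 1 the ESC comparison gave 1494 calls, 1470 of them higher, and without ESC-PGCLC replicates 1 and 2 it gave 320 and 300. The pESC comparison gave 665 and 666 without ESC replicates 1 and 2, 262 and 259 without pESC replicates 1 and 2, and 231 and 218 without pESC-PGCLC replicates 1 and 2. The 2 Tf subfamilies varied less. Their 171 of 247 5′ elements called higher from ESCs, with 1 lower, became 142 to 190 when single libraries were left out, and their 163 from pESCs, with 0 lower, became 124 to 175. Centring each library turned the split of all members to 258 higher and 3821 lower from ESCs and to 262 and 3708 from pESCs, while the median over all features went from 1.26 to -11.5 points and from 0.57 to -9.47 points. The Tf set then had 141 called higher and 28 lower from ESCs and 140 higher and 28 lower from pESCs, and the overlap with the uncentred calls was not counted. The median level over all features common to the 12 libraries was 11.2% to 13.3% in the stem cell libraries and 22.7% to 25.4% in the PGCLC libraries.

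The called elements with the largest rise of L1MdTf and L1MdGf are given next, and they do not stand for their subfamilies. L1MdTf_I:254-948 was at 3.97% and 9.93% in ESCs and 74.4% and 87.3% in ESC-PGCLCs (adjusted p = 0.000757, limma), and at 3.29% and 8.48% in pESCs and 82.2% and 72.3% in pESC-PGCLCs (adjusted p = 0.00115, limma). In PGCs it was at 88.5% and 88.8% (E9.5), then 76.9% and 82.9% (E12.5). L1MdGf_I:94-4931 was at 9.11% and 8.53% in pESCs and 69.3% and 64.7% in pESC-PGCLCs (adjusted p = 0.000181, limma), with 17.0% and 11.3% in ESCs and, in ESC-PGCLCs, 70.05% and 69.1%. L1MdGf_I:27-5586 was at 20.3% and 8% in ESCs and 74.1% and 82.3% in ESC-PGCLCs (adjusted p = 0.00162, limma).

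The rise was not confined to Tf and Gf. L1MdA_III:337-5605, the L1MdA element with the largest rise from both origins, was at 7.81% and 11.8% in ESCs, 70.9% and 71.4% in ESC-PGCLCs, 8.36% and 8.41% in pESCs and 65.3% and 65.0% in pESC-PGCLCs (adjusted p = 8.46e-05 and 0.000168, limma). It was at 85.7% and 87.0% in E9.5 PGCs. The few falls included the following elements. L1MdTf_III:273-712 was at 73.6% and 71.7% in ESCs and 58.6% and 53.5% in ESC-PGCLCs (adjusted p = 0.0464, limma), and at 82.1% and 73.6% in pESCs and 53.4% and 47.2% in pESC-PGCLCs (adjusted p = 0.00658, limma). L1MdGf_II:376-5587 was at 73.5% and 73.0% in ESCs and 58.1% and 58.7% in ESC-PGCLCs (adjusted p = 0.0116, limma). L1MdGf_II:4915-6576 was at 47.6% and 50.0% in pESCs and at 33.3% and 25.0% in pESC-PGCLCs (adjusted p = 0.0431, limma). L1MdA_VI:6281-6572 was at 48.0% and 63.2% in pESCs and listed at 0 in both pESC-PGCLC libraries (adjusted p = 0.00878, limma).

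PGCLCs of the 2 origins were last compared with each other. Between pESC-PGCLCs and ESC-PGCLCs 4 of 7438 members were called, 2 higher and 2 lower (0.0538%, against 0.0948% of all features), while 1644 had an unadjusted p under 0.05. The median difference was -3.04 points over members, -0.95 over all features, -3.59 over all repeats and -3.23 over the other L1Md elements. The level was lower in pESC-PGCLCs in every subfamily when 5′ elements were averaged, and the libraries of the 2 groups did not overlap in any of the 12. For L1MdTf_I and L1MdTf_II together the gap between the nearest libraries was 4.38 points, and for L1MdA_I it was 2.16 points. With each library centred on its own median the median difference over members was -1.09 points and that over all features 0.99.

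The 4 called members are L1MdA elements. L1MdA_VI:6015-6573 was at 75.0% and 75.6% in PGCLCs from ESCs and 53.6% and 49.4% in those from pESCs (adjusted p = 0.0474, limma). L1MdA_VII:1-79, the only 5′ element of the 4, was at 63.9% and 68.9% and at 39.8% and 36.4% (adjusted p = 0.0438, limma). L1MdA_VII:5536-6582 was at 50.8% and 48.6% and at 68.1% and 69.5% (adjusted p = 0.04999, limma). L1MdA_VI:6257-6576 was at 48.3% and 47.5% in pESC-PGCLCs and listed at 0 in each ESC-PGCLC library (adjusted p = 0.000247, limma). The count ranged from 1 to 11 when single libraries were left out, with 11 without ESC-PGCLC replicate 1, 2 each without ESC-PGCLC replicate 2 and pESC-PGCLC replicate 2, and 1 without any other library.

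Whether induction acts differently by origin was tested as an interaction in the 8 stem cell and PGCLC libraries. Only L1MdA_VI:6257-6576 was called among the 7438 members (0.0134%, against 0.0365% of all features), while 105 had an unadjusted p under 0.05. No L1MdTf or L1MdGf element was called by limma. The median difference of the changes, pESC minus ESC origin, was -2.66 points over members, against -0.89 over all features and -3.01 over all repeats. It was -6.03 without ESC replicate 1 and 0.84 without ESC replicate 2, so its direction turned with 1 library, and it was -1.70 without pESC replicate 1. Without ESC-PGCLC replicate 1 there were 7 calls and without ESC-PGCLC replicate 2 there were 3, while there were 0 without any 1 of the pESC or pESC-PGCLC libraries.

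Set beside other L1 elements, the young families differed mainly at the 5′ end. In E9.5 PGCs their 5′ elements were at 77.8% in both libraries, against 72.5% and 72.4% for 3149 other L1Md 5′ elements, and in E12.5 PGCs at 58.5% and 59.0%, against 52.8% and 52.9%. The 3′ elements were at 57.1% and 56.9% in E9.5 PGCs, against 59.7% and 59.6% for 3499 other L1Md 3′ elements. In ESCs the 5′ values overlapped, at 64.3% and 53.8% against 61.9% and 54.7%. Over all positions the E12.5 PGC libraries of the young families, at 49.7% and 50.1%, lay above those of Lx (42.7% and 43.2%) and L1M (41.5% and 42.7%) and below those of IAP (60.7% and 61.1%).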

How the data were processed

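RRBS levels of 12 mouse libraries (6 groups of 2, from the sample titles) were used. Each level is the fraction of CG calls in a feature that were methylated, as deposited by the authors, who aligned reads with Bismark 0.16.3 and Bowtie2 (mm10, per the submitters' processing notes), used reads with a unique best alignment and allowed for incomplete bisulfite conversion, according to the study's methods. Identical reads at a place were regarded there as duplicates, and whether they were removed is not stated. Their coverage minimum is not given in the sources used here. A read that matches several near-identical young L1 copies equally well has no unique best alignment, so the levels rest on copies and positions that can be told apart. The depth behind each level is unknown, so counting intervals cannot be given.

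Repeats were read by name and consensus range, with the _ in names ignored when members were chosen. The members, the comparison lists and the tests were chosen with earlier results of these data known. Levels L were tested with limma 3.58.1 in R 4.3.3 on log2((L + 0.01) / (1 - L + 0.01)), with Benjamini-Hochberg adjustment over all features of a fit and no replicate block. pESCs against ESCs used 4 libraries and 148012 features, the PGC and PGCLC comparisons 8 libraries and 137202, and induction with its interaction 8 libraries and 136848. The induction fit gave stem cell and PGCLC libraries a shared spread per feature, although the stem cell libraries differed more between replicates. The step was run on simulated data with independent noise and an equal spread in every group. The libraries here differ in spread between groups, so that run does not show how the calls behave in them. No p was computed for means over members, since 2 libraries against 2 cannot pass 0.05 by permutation.

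Elements were named by rule, namely the longest span of each family and, for each comparison and family, the called element with the largest rise and the largest fall, or, in a comparison without calls, the 2 members with the smallest unadjusted p. Members behind counts of 5 or fewer were also named, after their values were seen. Alternatives changed the offset, the scale, the block, the centring, the difference required, elements listed at 0 or 100, the libraries fitted and single libraries, and for means the weighting, the bins and the elements kept.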

Additional observations from a re-analysis of the deposited data

Results flagged for a closer look

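L1MdA_VI:6257-6576, a 3′ element, changed differently on induction in the 2 origins by the interaction test. The difference of the changes was 44.2 points (adjusted p = 0.00721, limma). It was at 51.5% and 47.0% in ESCs, listed at 0 in both ESC-PGCLC libraries, at 49.5% and 56.3% in pESCs and at 48.3% and 47.5% in pESC-PGCLCs. Its PGC libraries were between 43.0% and 55.8%. The element left the test when elements listed at exactly 0 or 100 were dropped. The coverage behind these levels of 0 is unknown.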

How the results depend on the processing

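Counts here are of members called. Requiring 20 points gave 2134 for E12.5 against E9.5 PGCs, 443 and 850 for ESC-PGCLCs and pESC-PGCLCs against E9.5 PGCs, and 168 and 62 (25 higher, 37 lower) against E12.5 PGCs, and no minimum gave 4642 for ESC-PGCLCs against E9.5 PGCs and 4255 and 1535 against E12.5 PGCs. Centring each library gave 472 for E12.5 against E9.5 PGCs, 508 and 655 for the PGCLCs against E9.5 PGCs, 409 and 122 against E12.5 PGCs, 2 for pESC-PGCLCs against ESC-PGCLCs, and 4079 and 3970, mostly lower, for induction from ESCs and pESCs. One fit of all 12 libraries gave 1487 and 38 for the PGCLCs against E12.5 PGCs and 2 for pESC-PGCLCs against ESC-PGCLCs. For the last comparison an offset of 0.1 gave 51 and untransformed levels gave 77. For the interaction these settings, and leaving out elements listed at 0 or 100, gave 0.

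Leaving out single libraries gave 0 to 18 for pESCs against ESCs, 6309 to 6727 for E12.5 against E9.5 PGCs, 2217 to 2537 and 3772 to 4347 for ESC-PGCLCs and pESC-PGCLCs against E9.5 PGCs, 2049 to 2498 and 0 to 462 against E12.5 PGCs, 1 to 11 between PGCLCs, 300 to 1494 and 218 to 666 for induction from ESCs and pESCs, and 0 to 7 for the interaction. The lone library left in a group was assumed to vary like the other groups. The cause of these changes was not tested.

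The replicate numbers are shared across groups but no label ties them to a batch or day. With the replicate number as a block (paired fit) the counts were 478 for pESC-PGCLCs against E12.5 PGCs and 1 between PGCLCs, and other counts stayed within 1.5 times. Deviations of same-numbered libraries correlated at 0.545 over members between ESCs and pESCs and at -0.0395 to 0.0668 in the other comparisons.

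Mean levels moved by more than 1 SD between replicates as follows. The median over members was 50.7% in pESCs, 67.6% and 47.8% in E9.5 and E12.5 PGCs and 57.4% and 53.6% in ESC-PGCLCs and pESC-PGCLCs. Weighting by span gave 55.9%, 74.2%, 55.7%, 63.3% and 59.9% in the same order, all elements of each library gave 66.0%, 48.8%, 57.0% and 53.8% in the last 4 groups, and leaving out elements listed at 0 or 100 gave 67.7% in E9.5 PGCs and 58.1% in ESC-PGCLCs. The step from 3′ to 5′ elements was 21.3, 18.4, 17.5 and 16.5 points in these 4 groups with 500-base bins, and 21.1 and 17.9 points in PGCs with spans of at least 500 bases.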
